A study of Mus musculus with 5 samples.

Results

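The TNF superfamily genes examined here are the 32 protein-coding genes of the RefSeq annotation of GRCm38.p6 whose symbols begin with Tnfrsf or Tnfsf, out of 21887 protein-coding genes. The rule that lists them reads only symbols, and they comprise 20 receptor genes and 12 ligand genes. PU.1, an ETS-family transcription factor of myeloid and B-lineage cells, was mapped by chromatin immunoprecipitation and sequencing (ChIP-seq) in mouse dendritic cells. Both kinds of cell, conventional (cDCs) and plasmacytoid (pDCs), came from Flt3L cultures of a strain labelled C56BL/6, and the labels name no treatment or altered gene. Each cell type had 2 biological replicate libraries, and the 1 input library, made without antibody, came from cDCs. How the cells were separated and whether the replicates came from separate mice is not stated in the labels, so the p-values measure the spread between these libraries. The question addressed is which loci carry more PU.1 in one cell type than in the other.

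TNF superfamily ligands are trimeric membrane or secreted proteins that cluster their receptors on the receiving cell. Clustered receptors recruit TRAF adaptors, which signal to NF-κB and MAP kinases, and receptors with a death domain can instead start cell death. Dendritic cells are known to show T cells costimulatory ligands of this family such as OX40L, GITRL and CD30L, and to supply B-lineage cells with the survival factors BAFF and APRIL. PU.1 binds purine-rich DNA with a GGAA core, often at sites away from gene starts.

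The values were counts of sequenced reads per window of 10 bp. A locus was the gene span with 10 kb on each side, and its signal was the sum of the tested windows in it. Neighbouring windows also formed regions, of which the median was 210 bp wide. Levels are given as CPM, the usual per-million count relative to the scaled library size, and a log2 fold is always pDC minus cDC with its standard error (SE), from 2 libraries per cell type. A locus or region was called different at an edgeR quasi-likelihood adjusted p below 0.05, adjusted over all 15001 loci or all 60527 regions. The PU.1 libraries held from 6896416 to 11388554 counts in all windows, and the input held 2776490. Windows with at least 1000 input counts, called repeat windows here, held 18.0% of the counts of pDC replicate 2 but 9.15% to 10.45% in the other PU.1 libraries, and none of them lay in a TNF superfamily locus. In marker genes of the labelled cell types, 5 of 8 cDC marker loci were higher in cDCs, 5 of 8 pDC marker loci were higher in pDCs and 2 of 5 tested B cell marker loci, Pax5 and Ms4a1, were higher in pDCs. The summed B cell marker signal was 202 to 211 CPM in cDCs and 282 to 300.4 CPM in pDCs, and its part in the results below was not tested. None of 5 tested T and NK cell marker loci was called (edgeR; 0 at an unadjusted p below 0.05, 0 by DESeq2), and of 6 macrophage and neutrophil markers 1 was higher in each cell type. A ChIP signal at a locus is not RNA, and a smaller share of cells with PU.1 bound cannot be told apart from less binding per cell.

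Windows with enough counts to test lay at most of these loci, and their summed signal was often dense. Tested windows lay in 28 of the 32 loci, those of 18 receptors and 10 ligands, with 506 windows in all. Of all 21887 genes, 15001 had a tested window. Such a window need not be above input, a comparison given further below. No deposited window lay at Tnfsf10 (the death ligand TRAIL), Tnfsf11 (the osteoclast factor RANKL) or Tnfrsf11b (its decoy receptor osteoprotegerin), and the 1 window at Tnfrsf19 was too low to test. The smallest sum of any window in the table was 33 counts, so the absence of a window does not measure a level of 0. These 4 genes have no part in the reported signal comparisons. Promoters of Tnfsf10, Tnfsf11 and Tnfrsf19 were among those searched for motifs. Per kb of locus, the median over the 28 was 1.30 CPM, against 0.642 CPM over all loci, and 22 of the 28 lay above the latter. The densest was Tnfrsf14, the receptor HVEM, at 5.51 CPM per kb in cDCs and 5.18 in pDCs, which is percentile 98.3 of all loci. Next in the order came Tnfrsf13c, at 3.96 and 4.44 CPM per kb in cDCs and pDCs, Tnfsf9 at 4.24 and 3.52, Tnfrsf1a at 3.13 and 3.46, and Tnfrsf13b at 2.54 and 3.22. Most tested windows of these dense loci lay in the flanks. In the gene span were 9 of 32 at Tnfrsf14, 0 of 14 at Tnfrsf13c and 8 of 31 at Tnfsf9. For Tnfrsf1a it was 11 of 40 and for Tnfrsf13b 11 of 25. Other genes shared all tested windows of Tnfrsf13c and Tnfrsf1a, 76% of those of Tnfrsf13b and 25.8% of those of Tnfsf9. At the low end Tnfrsf26 had 0.197 CPM per kb in cDCs and 0.163 in pDCs, and Tnfsf4, the OX40 ligand, 0.285 and 0.303.

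**Figure D1:**
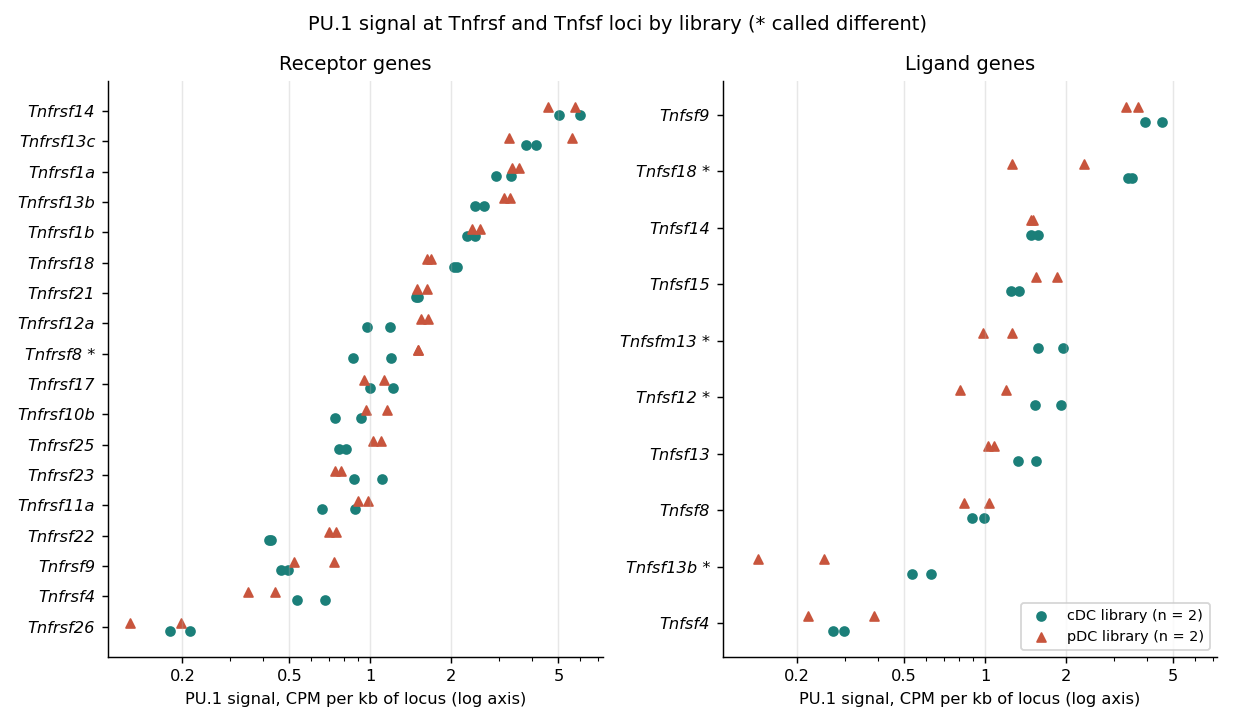
PU.1 signal per kb of locus (CPM per kb, log axis) in each of the 4 PU.1 libraries, for the 18 receptor and 10 ligand loci with tested windows, ordered by mean. Circles are cDC libraries, triangles pDC libraries, and an asterisk marks the 5 loci called different; at 4 of these, all ligands, both triangles lie left of both circles.

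Summed over the locus, 5 of the 28 genes differed between the cell types. The ligand genes Tnfsf13b, Tnfsf18, Tnfsf12 and Tnfsfm13 had more PU.1 signal in cDCs, by 1.58-fold to 2.96-fold, and the receptor gene Tnfrsf8 had 1.47-fold more in pDCs. The share called, 17.9%, was near the 16.5% over all loci, of which 9.54% were higher in pDCs and 6.97% in cDCs. By kind, 4 of 10 ligand loci were higher in cDCs and 0 in pDCs (edgeR; 1, Tnfsf15, at an unadjusted p below 0.05, and 0 by the DESeq2 Wald test), while 17 of 18 receptor loci were not called. Of the 4 ligand loci, Tnfsf12 and Tnfsfm13 share windows and count largely the same signal. With windows given to the nearest gene, 3 of the family's loci were higher in cDCs. The windows of the uncalled Tnfsf13 also lie in the Tnfsfm13 locus. The ligand median of -0.36 and the 8 of 10 ligands below 0 count these 3 overlapping loci separately. More widely, 18 of the 28 loci share tested windows with another gene and 13 share all of them. The median log2 fold was -0.36 over the 10 ligands, 0.16 over the 18 receptors and 0.05 over all loci. When the repeat windows set the library sizes, the median of all loci moved to -0.46, that of the receptors to -0.31 and that of the ligands to -0.90. The log2 fold lay below 0 in 8 of 10 ligands and above 0 in 12 of 18 receptors, but with the repeat-window scaling in 10 of 10 and in 3 of 18. With the gene span alone it was below 0 in 5 of 9 ligands (median -0.12) and above 0 in 7 of 12 receptors, and the ligand median was -0.092 with flanks of 50 kb and -0.21 by nearest gene. Libraries did not overlap between the cell types at 19 of the 28 loci, 67.9%, against 58.2% of all loci.

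These counts moved with single libraries. Without cDC replicate 1 or without cDC replicate 2, 0 loci of the family were higher in pDCs and 2, Tnfsf13b and Tnfsf18, in cDCs, while 4.68% and 6.19% of all loci were called. Without pDC replicate 1 the numbers were 4 and 4, beside 21.2% of all loci called, and without pDC replicate 2 they were 6 and 5, beside 37.6%. The counts of the family and of all loci fell and rose in the same fits. The receptor genes gained without pDC replicate 1 were Tnfrsf13b, Tnfrsf12a (edgeR adjusted p = 0.0448) and Tnfrsf22. In such fits the lone library of a cell type was assumed to vary like the other pair.

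**Figure D2:**
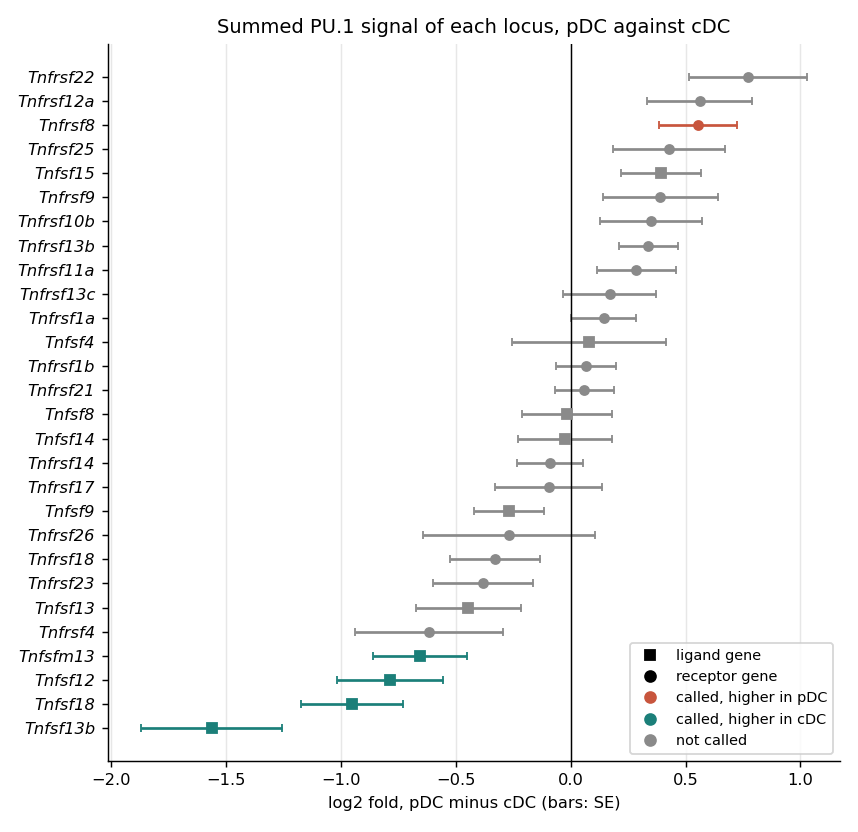
Log2 fold of the summed PU.1 signal, pDC minus cDC, for the 28 loci with tested windows; squares are ligand genes, circles receptor genes, and bars the SE. The 4 loci called higher in cDCs are the 4 lowest, from -0.66 for Tnfsfm13 to -1.56 for Tnfsf13b, and the 1 called higher in pDCs is Tnfrsf8 at 0.55.

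Among the B cell survival genes, the ligand gene Tnfsf13b differed most. Tnfsf13b encodes BAFF, which keeps B cells alive, and spans chr8:10006229-10036000. Its locus had 26.5 and 31.2 CPM in cDC replicates 1 and 2, against 7.12 and 12.5 CPM in pDC replicates 1 and 2. Both cDC libraries lay above both pDC libraries, by 2.96-fold, a log2 fold of -1.56 ± 0.31 (SE; edgeR adjusted p = 0.0037). The call held without any 1 of the 4 libraries and ended with flanks of 50 kb (log2 fold -0.27, edgeR adjusted p = 0.333) and with the repeat-window scaling (-2.21, edgeR adjusted p = 0.0795).

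The Tnfsf13b signal lay mainly in 1 region at the gene start, chr8:10006501-10006810. Its window with the smallest p held 59 and 68 counts in the cDC libraries, 8 and 10 in the pDC libraries and 0 in the input. The cDC libraries stood apart from the pDC libraries at 5.4 and 5.87 CPM against 1.05 and 1.61 CPM, a log2 fold of -2.09 ± 0.38 (edgeR adjusted p = 0.00177). Against a floor of 3 input counts, the signal at the strongest window was at least 5.37-fold above input in cDCs and at least 1.605-fold in pDCs, and only the cDC side passed the input test. In the promoter sequence below, from RefSeq (GRCm38.p6, chr8:10006383-10006682, plus strand, 250 bases before the start to 50 after), capitals mark the 182 bases under that region. Tnfsf13b is the only gene of the family with a promoter that a called region overlaps.
Tnfsf13b: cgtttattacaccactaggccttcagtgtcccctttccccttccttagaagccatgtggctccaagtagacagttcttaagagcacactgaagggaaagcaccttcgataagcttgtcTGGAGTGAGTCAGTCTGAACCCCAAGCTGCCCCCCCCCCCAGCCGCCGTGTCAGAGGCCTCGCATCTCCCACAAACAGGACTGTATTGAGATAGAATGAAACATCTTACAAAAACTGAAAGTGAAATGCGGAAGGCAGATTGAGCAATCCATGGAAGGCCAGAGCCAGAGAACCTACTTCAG
None of the 3 motifs searched on both strands occurs in these 300 bases: GAGGAAGT, the shorter GAGGAA contained in it, and GGAA followed after 2 bases of any kind by GAAA. The bare core GGAA was not among the motifs, and its letters do occur in the capitals. The rest of the region, past the promoter, was not searched. A second annotated start lies upstream, and 16 bases of its promoter window lie under the region.

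The other survival factor gene, Tnfsf13, sits together with Tnfsf12 and Tnfsfm13 on chromosome 11. Tnfsf12 encodes TWEAK, Tnfsf13 encodes APRIL, and Tnfsfm13 is the annotated gene that joins both. All their tested windows were shared with each other or with neighbouring genes, Senp3 among them, so their folds are not separate measurements. Tnfsf12 had 45.6 and 57.2 CPM in cDCs and 24.1 and 35.7 CPM in pDCs, a log2 fold of -0.79 ± 0.23 (edgeR adjusted p = 0.0311). For Tnfsfm13 the values were 52.9 and 65.4 CPM in cDCs and 32.8 and 42.3 CPM in pDCs, a log2 fold of -0.66 ± 0.20 (edgeR adjusted p = 0.0399). At Tnfsf13 the cDC libraries had 30.5 and 35.4 CPM and the pDC libraries 23.6 and 24.8 CPM, and the log2 fold of -0.45 ± 0.23 was not called (edgeR adjusted p = 0.209). Libraries of the 2 cell types did not overlap at any of the 3 loci. Without cDC replicate 1 the edgeR adjusted p was 0.0869 for Tnfsf12 and 0.142 for Tnfsfm13, and without cDC replicate 2 it was 0.380 and 0.497.

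No single region of the chromosome 11 cluster was called. The strongest one higher in cDCs, chr11:69695901-69696160, held 56 and 82 counts at its strongest window in cDCs, 19 and 26 in pDCs and 3 in the input. At its window with the smallest p the log2 fold was -0.99 ± 0.33 (edgeR adjusted p = 0.0958). It was above input in cDCs and not in pDCs. This region lies over the start of Tnfsfm13, whose promoter (RefSeq, GRCm38.p6, chr11:69696049-69696348, minus strand) is printed here because the called loci share it, a choice made after the values were seen. Capitals mark the 112 bases under the region.
Tnfsfm13: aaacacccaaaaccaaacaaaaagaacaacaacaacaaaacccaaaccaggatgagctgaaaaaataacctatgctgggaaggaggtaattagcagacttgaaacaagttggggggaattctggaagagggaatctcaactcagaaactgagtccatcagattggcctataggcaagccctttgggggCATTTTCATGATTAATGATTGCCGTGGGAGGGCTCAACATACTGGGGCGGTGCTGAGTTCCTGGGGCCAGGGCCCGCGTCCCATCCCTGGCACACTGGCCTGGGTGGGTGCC
None of the 3 motifs occurs in this promoter either, although the bare core GGAA does.

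The receptors of BAFF and APRIL were not called. Tnfrsf13c (BAFF-R, the main BAFF receptor of mature B cells) had 85.8 and 93.5 CPM in cDCs and 127 and 73.8 CPM in pDCs, so the pDC libraries lay on either side of the cDC pair (log2 fold 0.17 ± 0.20, edgeR adjusted p = 0.637). Its value turned to -0.28 without pDC replicate 1, and without pDC replicate 2 it was called higher in pDCs (0.50, edgeR adjusted p = 0.00029). Tnfrsf13b (TACI) had 115 and 123 CPM in cDCs and 147 and 155 CPM in pDCs. The libraries did not overlap, but the log2 fold of 0.34 ± 0.13 was not called (edgeR adjusted p = 0.0926). It turned to -0.20 with the repeat-window scaling. With the gene span alone it passed (0.51, edgeR adjusted p = 0.0363), as it did without pDC replicate 1 (0.00656) or 2 (0.0261). Tnfrsf17 (BCMA, the plasma cell receptor) had 32.6 and 26.8 CPM in cDCs and 25.3 and 30.2 CPM in pDCs, with overlapping libraries (-0.10 ± 0.23, edgeR adjusted p = 0.837).

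Tnfrsf13b and Tnfrsf13c held 2 of the 3 strongest regions of the family. In the Tnfrsf13b span, and also within reach of Usp22, lies chr11:61142301-61142660. Its strongest window had 173 and 175 counts in cDCs, 159 and 153 in pDCs and 4 in the input. In CPM that was 15.8 and 15.1 CPM against 21.0 and 24.6 CPM, with the pDC libraries higher but not called (log2 fold 0.60 ± 0.23 at the window with the smallest p, edgeR adjusted p = 0.239). Downstream of Tnfrsf13c and also within reach of Shisa8, chr15:82218851-82219210 had 15.3 and 16.9 CPM in cDCs and 23.6 and 12.1 CPM in pDCs, which overlapped.

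Among the ligands that costimulate T cells, Tnfsf18, which encodes GITRL, was called higher in cDCs, and Tnfsf4, Tnfsf9 and Tnfsf8 were not called. The genes were not tested against each other. Tnfsf18 spans chr1:161494657-161505290. In cDCs its locus had 107 and 104 CPM, and in pDCs 38.5 and 71.3 CPM. Both cDC libraries lay above both pDC libraries, 1.93-fold on average, at a log2 fold of -0.95 ± 0.22 (edgeR adjusted p = 0.00945). This call, too, held without any 1 library and ended with the repeat-window scaling (-1.60, edgeR adjusted p = 0.354) and against a minimum fold of 1.5 (edgeR adjusted p = 0.226). No other gene shares its windows.

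Of the 7 regions at Tnfsf18, 3 were called and all 3 were higher in cDCs. The strongest, chr1:161500801-161501060, lies in the gene span, 6.27 kb past the start, and had 142 and 117 counts in cDCs, 28 and 45 in pDCs and 3 in the input. At 12.99 and 10.1 CPM against 3.69 and 7.24 CPM, its log2 fold was -1.10 ± 0.29 (edgeR adjusted p = 0.0266), and it was 10.7-fold over input in cDCs (95% counting interval 3.62 to 52.2). Closer to the start, chr1:161496501-161496710 had 33 and 35 counts in cDCs and 7 and 6 in pDCs (log2 fold -1.67 ± 0.46, edgeR adjusted p = 0.0366). Upstream of the gene, chr1:161490801-161490860 had 15 and 18 counts in cDCs and 0 and 1 in pDCs, a ratio of 20.2 (95% counting interval 3.39 to 823; edgeR adjusted p = 0.00653). The last 2 were not above input in either cell type. Without cDC replicate 1 the edgeR adjusted p of the 3, in the order given, was 0.342, 0.203 and 0.110, without cDC replicate 2 it was 0.0503, 0.181 and 0.221, and without pDC replicate 1 it was 0.278, 0.0978 and 0.0373.

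The Tnfsf18 promoter, which no region overlaps, is the only one of the 29 member promoters with the 8-letter motif GAGGAAGT. It is printed for that reason, chosen after the search, from RefSeq (GRCm38.p6, chr1:161494407-161494706, plus strand). Capitals mark the motif matches: the 8-letter match read on the minus strand from base 22, and GAGGAA on the plus strand from base 36.
Tnfsf18: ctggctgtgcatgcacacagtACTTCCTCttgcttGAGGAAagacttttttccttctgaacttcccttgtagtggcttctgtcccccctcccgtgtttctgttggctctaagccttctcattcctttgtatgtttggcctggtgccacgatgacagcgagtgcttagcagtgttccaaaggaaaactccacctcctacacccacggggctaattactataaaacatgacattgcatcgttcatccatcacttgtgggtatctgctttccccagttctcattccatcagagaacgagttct
The 29 member promoters come from 25 genes, and members without a listed promoter, such as Tnfsf12, were not searched. Over all 32851 promoters in the table, 3.20% hold the 8-letter motif. GAGGAA, which every 8-letter match also contains, is in 9 of the 29 member promoters, 31.0%, and in 28.3% of all. The spaced GGAA and GAAA motif, which can overlap the others at its GGAA, is in 0 of the 29 and in 2.72% of all. A match is a description of the letters only.

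Tnfsf4, Tnfsf9 and Tnfsf8 showed no called region. Tnfsf4, the OX40 ligand, had 12.8 and 11.6 CPM in cDCs and 9.36 and 16.6 CPM in pDCs, with the cDC libraries inside the range of the pDC pair (log2 fold 0.08 ± 0.34, edgeR adjusted p = 0.909). Tnfsf9, which encodes the CD137 ligand, had 102 and 88.5 CPM in cDCs and 75.0 and 83.2 CPM in pDCs. Its cDC libraries were the higher pair, but the log2 fold of -0.27 ± 0.15 was not called (edgeR adjusted p = 0.265), except without pDC replicate 2 (0.0371). Tnfsf8, the CD30 ligand, had 44.8 and 49.7 CPM in cDCs and 41.8 and 51.8 CPM in pDCs, which overlapped (-0.02 ± 0.20, edgeR adjusted p = 0.969).

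Tnfsf15 held a called region in each direction inside the same gene. It encodes TL1A, a ligand that costimulates T cells and innate lymphoid cells through DR3, and spans chr4:63724600-63745059 on the minus strand. Higher in pDCs was chr4:63739701-63739910, 5.25 kb past the start, with 89 and 39 counts in the pDC libraries, 19 and 21 in the cDC libraries and 3 in the input. That was 11.7 and 6.27 CPM against 1.74 and 1.81 CPM, both pDC libraries above both cDC libraries. At 5.10-fold (log2 fold 2.35 ± 0.34, edgeR adjusted p = 0.000142) it had the smallest p of the family's regions, and it was 7.90-fold over input in pDCs (95% counting interval 2.64 to 38.8) and not above input in cDCs. Higher in cDCs was chr4:63743401-63743560, 1.58 kb past the start and 3.49 kb from the first, with 21 and 20 counts in cDCs against 2 and 2 in pDCs (log2 fold -2.60 ± 0.65, edgeR adjusted p = 0.0192). It was above input in neither cell type.

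Leaving out any 1 library did not end the call of the pDC-high Tnfsf15 region, with edgeR adjusted p of at most 0.00141, but the repeat-window scaling did (0.0593). The cDC-high one lost its call without cDC replicate 1 (edgeR adjusted p = 0.324), cDC replicate 2 (0.158) or pDC replicate 1 (0.0924). Over the whole locus Tnfsf15 had 50.4 and 54.2 CPM in cDCs and 74.6 and 62.6 CPM in pDCs, with pDCs the higher pair. The log2 fold of 0.39 ± 0.17 was not called (edgeR adjusted p = 0.144), but with the gene span alone it was 1.37 (edgeR adjusted p = 0.0116), with windows of a mean of at least 30 counts 1.36 (0.00452) and without pDC replicate 2 0.51 (0.00643).

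**Figure D3:**
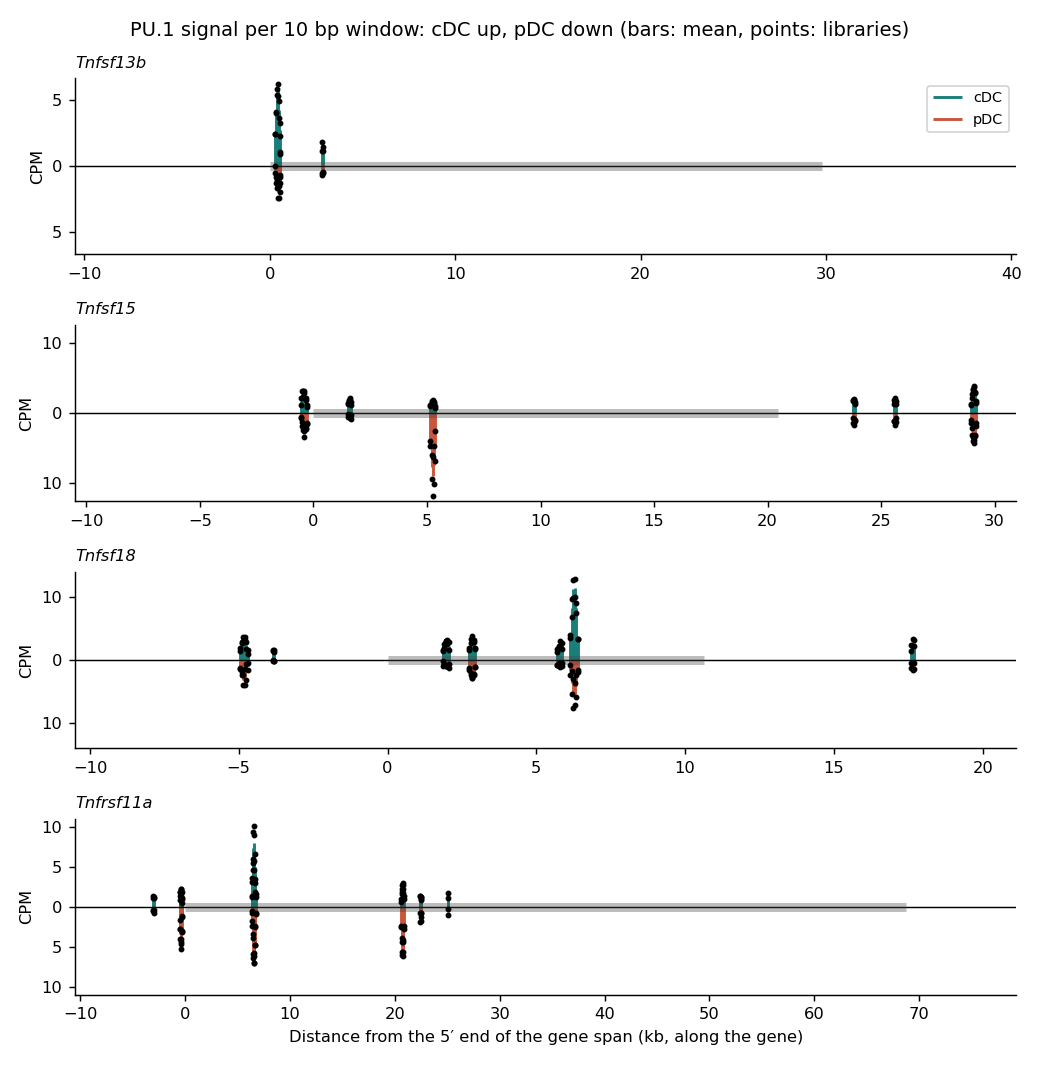
PU.1 signal in each tested 10 bp window (CPM) along 4 members, by distance from the 5′ end of the gene span in kb, with cDCs upward and pDCs downward. Coloured bars are means of the 2 libraries, points single libraries and the grey bar the gene span; Tnfsf13b and Tnfsf18 have their tallest bars in cDCs, Tnfsf15 has its tallest in pDCs at 5.25 kb, and Tnfrsf11a has called pDC-high regions beside a tall uncalled one.

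Tnfsf14, the ligand LIGHT, did not differ beyond the spread, while its receptor gene held the strongest signal of the family. Tnfsf14 had 36.5 and 38.8 CPM in cDCs and 37.3 and 36.7 CPM in pDCs (log2 fold -0.02 ± 0.20, edgeR adjusted p = 0.955). By the gene span alone it lay at 1.01 without a call (edgeR adjusted p = 0.0741). The receptor gene Tnfrsf14, which also binds the inhibitory partner BTLA, had 181 and 151 CPM in cDCs and 174 and 138 CPM in pDCs, overlapping (-0.09 ± 0.15, edgeR adjusted p = 0.736). With the gene span alone it was called higher in cDCs (-0.70, edgeR adjusted p = 0.0477), and without cDC replicate 1 it turned to 0.04.

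The strongest region of the family in both cell types was chr4:154929451-154929810, 1.55 kb upstream of the Tnfrsf14 start. Its strongest window had 260 and 231 counts in cDCs, 234 and 141 in pDCs and 2 in the input, which is 23.8 and 20.0 CPM against 30.9 and 22.7 CPM. It was 30.4-fold over input in cDCs (95% counting interval 8.37 to 252) and 34.7-fold in pDCs (9.54 to 288). The difference between the cell types was not called (log2 fold 0.68 ± 0.25 at the window with the smallest p, edgeR adjusted p = 0.261), except without pDC replicate 2 (edgeR adjusted p = 0.00651). Downstream of the gene, the much weaker chr4:154916801-154916910 was called higher in cDCs, with 14 and 19 counts against 0 and 2, a ratio of 10.1 (95% counting interval 2.59 to 87.0; edgeR adjusted p = 0.0202). That one was above input in neither cell type, and its call ended without cDC replicate 1 (edgeR adjusted p = 0.145), cDC replicate 2 (0.386) or pDC replicate 1 (0.195).

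Tnfrsf8, the CD30 receptor, was the receptor locus called different. It spans chr4:145267132-145315164 and had 58.6 and 81.0 CPM in the cDC libraries, below the 102 and 103 CPM of the pDC libraries. The pDC libraries were nearly equal and above both cDC libraries, a log2 fold of 0.55 ± 0.17 (edgeR adjusted p = 0.0377). None of its 3 regions was called, and the tallest, chr4:145276551-145276860 in the gene span, had a mean of 9.07 CPM in cDCs and 13.9 CPM in pDCs at its strongest window (log2 fold at the window with the smallest p 0.72 ± 0.24, edgeR adjusted p = 0.123). The locus call ended without cDC replicate 1 (log2 fold 0.33, edgeR adjusted p = 0.649) or cDC replicate 2 (0.81, 0.0573) and in 7 further settings, among them library-size scaling (0.42, 0.135) and the DESeq2 Wald test (0.51, adjusted p = 0.0544).

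The T cell receptors of this group were not called as loci. Tnfrsf4, which encodes OX40, had 12.3 and 15.5 CPM in cDCs and 8.04 and 10.1 CPM in pDCs, the cDC pair higher (log2 fold -0.62 ± 0.32, edgeR adjusted p = 0.218). Its windows were all shared with Tnfrsf18 (GITR) or Ttll10. Tnfrsf9, which encodes CD137, had 21.4 and 22.6 CPM in cDCs and 33.6 and 23.97 CPM in pDCs (0.39 ± 0.25, edgeR adjusted p = 0.326). Without pDC replicate 2 the Tnfrsf9 locus was called (0.61, edgeR adjusted p = 0.0315). Between Tnfrsf9 and Park7, 7.54 kb upstream of the Tnfrsf9 span and within reach of both, chr4:150912451-150912610 was called higher in pDCs, with 32 and 22 counts against 16 and 15 in cDCs. The pDC libraries, at 4.22 and 3.54 CPM, lay above the cDC libraries at 1.46 and 1.30 CPM (log2 fold 1.49 ± 0.39, edgeR adjusted p = 0.0181). Its call ended without cDC replicate 1 (edgeR adjusted p = 0.0606) or 2 (0.308), and it was not above input in either cell type.

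The loci of the TNF receptor genes had dense signal in both cell types. All tested windows of the Tnfrsf1a locus are also within reach of Plekhg6 or Scnn1a, and its strongest region, chr6:125367751-125368110 at a mean of 8.15 CPM in cDCs and 9.83 CPM in pDCs, lies in the Plekhg6 span. No other gene shares the windows of Tnfrsf1b. Tnfrsf1a, the receptor with a death domain, had 109 and 96.1 CPM in cDCs and 117 and 110 CPM in pDCs (log2 fold 0.14 ± 0.14, edgeR adjusted p = 0.555). Tnfrsf1b, the receptor without one, had 133 and 124 CPM in cDCs and 139 and 130 CPM in pDCs, overlapping (0.07 ± 0.13, edgeR adjusted p = 0.789). Neither locus was called, but each held 1 called region, in opposite directions. In the Tnfrsf1a span and within reach of Plekhg6, chr6:125361001-125361160 had 27 and 29 counts in cDCs against 2 and 6 in pDCs (log2 fold -2.07 ± 0.56, edgeR adjusted p = 0.0327). At 5.83 kb upstream of the Tnfrsf1b span, chr4:145252701-145252810 had 16 and 14 counts in pDCs against 8 and 4 in cDCs (2.00 ± 0.53, edgeR adjusted p = 0.0172). The first was above input in neither cell type, the second in pDCs only.

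Neither of these calls held in every fit that left out 1 library. The Tnfrsf1a region lost its call without cDC replicate 1 (edgeR adjusted p = 0.113), cDC replicate 2 (0.147) or pDC replicate 1 (0.228). For the Tnfrsf1b region that was so without cDC replicate 2 (0.283) or pDC replicate 1 (0.0881). With the gene span alone the Tnfrsf1a locus turned to -0.67 without a call (edgeR adjusted p = 0.133).

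Tnfrsf11a, which encodes RANK, the receptor that osteoclast precursors and dendritic cells use for RANKL, held 2 regions higher in pDCs. Just upstream of the gene, chr1:105780151-105780410 had 35 and 27 counts in pDCs, 25 and 16 in cDCs and 0 in the input. At 4.62 and 4.34 CPM the pDC libraries lay above the cDC libraries at 2.29 and 1.38 CPM (log2 fold 1.29 ± 0.37, edgeR adjusted p = 0.0414). In the gene span, 20.7 kb past the start, chr1:105801251-105801510 had 46 and 35 counts in pDCs against 24 and 32 in cDCs, or 6.07 and 5.63 CPM against 2.20 and 2.76 CPM (1.23 ± 0.32, edgeR adjusted p = 0.0284). The tallest region of the gene, chr1:105787001-105787410, had a mean of 7.97 CPM in cDCs and 7.03 CPM in pDCs and was not called (edgeR adjusted p = 0.603). Over the locus Tnfrsf11a had 78.0 and 58.7 CPM in cDCs and 86.9 and 79.6 CPM in pDCs, a log2 fold of 0.29 ± 0.17 (edgeR adjusted p = 0.296).

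The upstream Tnfrsf11a region lost its call without cDC replicate 1 (edgeR adjusted p = 0.185), cDC replicate 2 (0.629) or pDC replicate 1 (0.107), and the other without cDC replicate 1 (0.376) or 2 (0.149). Both also lost it with library-size scaling.

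Tnfrsf21, which encodes the death receptor DR6, had 8 regions and 1 called. The call was downstream of the gene, at chr17:43089601-43089810, with 32 and 30 counts in cDCs, 2 and 5 in pDCs and 1 in the input. At 2.93 and 2.59 CPM both cDC libraries exceeded the pDC libraries at 0.264 and 0.804 CPM (log2 fold -2.40 ± 0.55, edgeR adjusted p = 0.00933), and the region was above input in cDCs only. Without cDC replicate 1 the edgeR adjusted p was 0.0920 and without pDC replicate 1 it was 0.0696. The whole locus had 139 and 137 CPM in cDCs and 138 and 150 CPM in pDCs, overlapping (0.06 ± 0.13, edgeR adjusted p = 0.814).

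The remaining 7 receptor loci with tested windows, Tnfrsf10b, Tnfrsf12a, Tnfrsf18, Tnfrsf22, Tnfrsf23, Tnfrsf25 and Tnfrsf26, held no called region. Their log2 folds ran from -0.38 at Tnfrsf23 to 0.77 at Tnfrsf22, with edgeR adjusted p from 0.0536 to 0.693. Tnfrsf22 and Tnfrsf23 encode mouse decoy receptors for TRAIL. The Tnfrsf22 value of 0.77 ± 0.26 was the nearest to a call, with 14.9 and 14.7 CPM in cDCs and 24.5 and 26.1 CPM in pDCs, which did not overlap. Tnfrsf22 passed without pDC replicate 1 (edgeR adjusted p = 0.0203), without pDC replicate 2 (0.0267) and with windows of a mean of at least 30 counts (0.0299).

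Site by site, 13 of the 103 regions of the family were called, 5 higher in pDCs and 8 higher in cDCs. That is 12.6%, against 14.5% of all regions, of which 8.46% were higher in pDCs and 6% in cDCs. The 13 belonged to 9 genes, 7 of which were not called as loci, whereas the called loci Tnfrsf8, Tnfsf12 and Tnfsfm13 held no called region. Of the 13, 7 lay in the gene span, as did 48 of all 103 regions. Within 1 kb of a start lay 2 of them, those of Tnfsf13b and Tnfrsf11a, beside at least 13 of the 103. Most regions were weak, whether called or not. At their strongest window 29 of the 103 reached 5 CPM in at least 1 cell type, as did 4 of the 13 called ones.

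The number of called regions also moved with single libraries and with the test. Without cDC replicate 1 it was 2 higher in pDCs and 1 in cDCs, without cDC replicate 2 it was 1 and 2, without pDC replicate 1 it was 5 and 3, and without pDC replicate 2 it was 10 and 15. Over all 60527 regions, the same fits called 2015 and 1016, 2361 and 1283, 3308 and 2402, and 8076 and 7586, against 5123 and 3634 with all libraries. By the DESeq2 Wald test, of the 13 only the pDC-high Tnfsf15 region was called, beside 1457 of all regions higher in pDCs and 427 in cDCs.

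**Figure D4:**
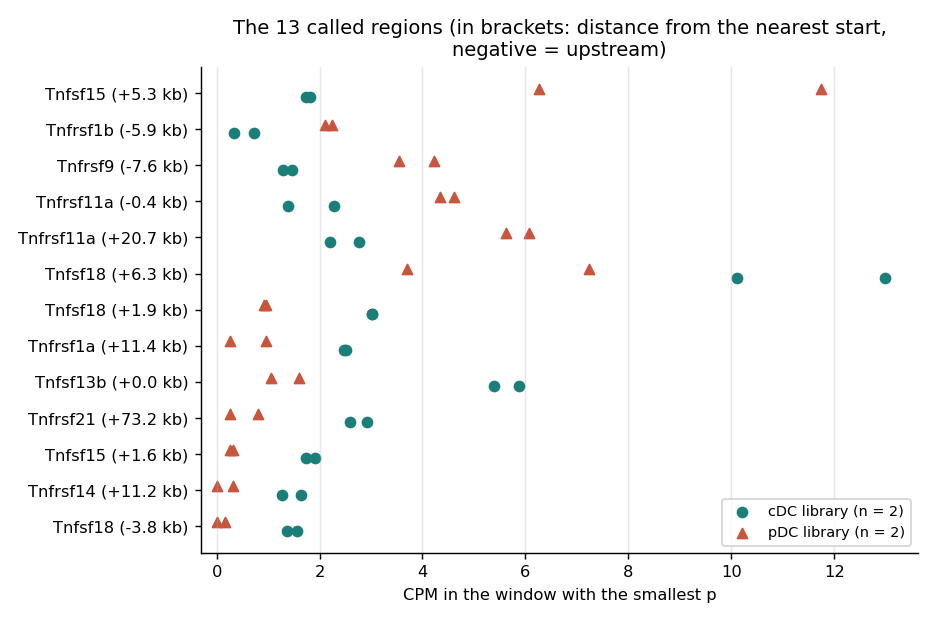
CPM in each PU.1 library at the window with the smallest p, for the 13 called regions, with the distance from the nearest start in brackets. Circles are cDC libraries and triangles pDC libraries; the upper 5 regions are higher in pDCs and the lower 8 higher in cDCs. The symbols separate in each row because the rows were picked for a difference at this window.

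Against the input, 39 of the 103 regions were above it in cDCs, 37.9%, and 33 in pDCs, 32.0%, next to 31.5% and 28.4% of all regions. Above input meant an edgeR adjusted p below 0.05 and at least 2-fold at the window with the smallest p. Both cell types passed at 27 regions (22.3% of all regions did), cDCs alone at 12 (9.2%), pDCs alone at 6 (6.14%) and neither at 58 (62.4%). At least 1 such region was found at 23 of the 28 genes, for which no share over all loci was counted. The 5 without one were Tnfsf4, Tnfsf14, Tnfrsf4, Tnfrsf17 and Tnfrsf26. The single input came from cDCs, its spread was set equal to that of the ChIP libraries, and 74.6% of its counts lay in the repeat windows. With the repeat-window scaling all 103 regions were above input in cDCs and most of them in pDCs. The counts above, the 5 genes named and the input results of single regions therefore hold only for scaling by total counts.

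Of the 13 called regions, which were picked for a difference between the cell types, the input values are given as a description. Of the 5 regions higher in pDCs, 4 were above input in pDCs and 1 in cDCs. Of the 8 higher in cDCs, 3, those of Tnfsf13b, Tnfrsf21 and the strongest of Tnfsf18, were above input in cDCs and 0 in pDCs (edgeR, 2 at an unadjusted p below 0.05, smallest adjusted p 0.0684). The other 6 called regions, above input in neither cell type, were all at or below 3.88 CPM on average at their strongest window.

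**Figure D5:**
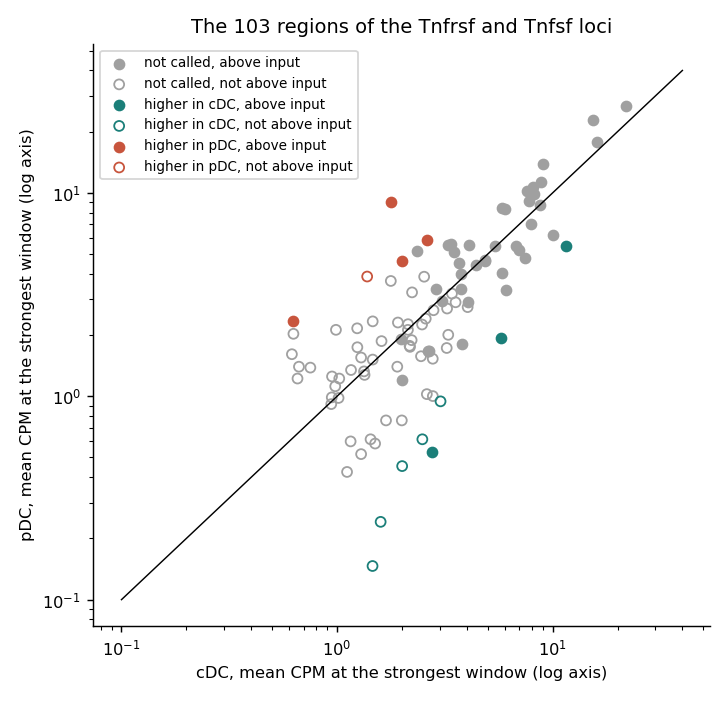
Mean CPM at the strongest window in cDCs (x) and pDCs (y), both on log axes, for the 103 regions; filled points are above input in at least 1 cell type and the line marks equal signal. The strongest regions lie near the line, led by the Tnfrsf14 region at 21.9 and 26.8 CPM. Most regions, called (in colour) or not, lie at lower signal.

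Other genes of the pathway were read from lists that hold superfamily genes with other symbols and signalling genes. None of the 7 other ligand loci (Tnf, Lta, Ltb, Cd40lg, Fasl, Cd70 and Eda) and none of the 6 tested of 8 other receptor loci (Cd40, Cd27, Ltbr, Ngfr, Edar and Relt) was called by edgeR, beside 16.5% of all loci, with 0 and 1 at an unadjusted p below 0.05 and 0 and 0 calls by DESeq2. Their median log2 folds were 0.02 and -0.09, beside 0.05 over all loci. Of 23 adaptor and regulator loci, 21 were not called, 1 was higher in pDCs and 1 was higher in cDCs, beside 9.54% and 6.97% of all loci. At Traf4, an adaptor of the TRAF family, the pDC libraries had 138 and 75.4 CPM and the cDC libraries 34.8 and 38.2 CPM (log2 fold 1.55 ± 0.23, edgeR adjusted p = 0.00072). At Ripk1, the kinase that TNF receptor complexes recruit, the cDC libraries had 26.8 and 27.2 CPM and the pDC libraries 13.3 and 11.7 CPM (-1.10 ± 0.26, edgeR adjusted p = 0.0108). All windows of both loci are shared with neighbouring genes. With flanks of 50 kb both calls ended, with Traf4 at 0.25 and Ripk1 at 0.0028, and Ripk1 also lost its call without cDC replicate 1 or 2 (edgeR adjusted p = 0.1297 and 0.131).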

How the data were processed

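PU.1 ChIP-seq was measured in 2 cDC and 2 pDC libraries, with 1 input library. The deposited values were whole-number counts per 10 bp window in 329996 windows, not normalized. Subread 1.4.4 and the mm10 build are named per the submitters' processing notes, and the role of Subread is not given in the sources used here. Gene spans and promoters came from RefSeq (GRCm38.p6).

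Windows with too few counts were removed with edgeR's filter (minimum count 10), leaving 286435 windows, and TMM factors were computed on these. Loci (span with 10 kb on each side) were summed over tested windows. Regions were runs of windows no more than 100 bp from the next, up to 5000 bp long, with window p-values combined by Simes' method and the fold taken from the window with the smallest p. Both were tested with edgeR's quasi-likelihood test, pDC against cDC on the 4 PU.1 libraries without a block, with Benjamini-Hochberg adjustment. Input was compared in a fit over all 5 libraries, with total counts as library sizes. Intervals and floors (3 counts) cover counting error only, and the labels name no molecular identifiers. R 4.3.3, edgeR 4.0.16, limma 3.58.1, DESeq2 1.42.0 and GenomicRanges 1.54.1 were used, and the scripts were tested on simulated data.

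Depth is given with the results. An exact permutation test of 2 against 2 libraries cannot go below p = 0.333. Replicates differed by more than sampling noise (chi-square per degree of freedom 1.40 in cDCs and 2.16 in pDCs), so none was merged in the edgeR and DESeq2 tests. Window folds over input, low-count ratios and counting intervals used the summed counts of the 2 libraries of a cell type. Those intervals do not cover the spread between replicates. The alternatives were other scalings, filters, flanks, joins and tests, a minimum fold of 1.5, a replicate block and leaving out each library. TMM factors from the locus sums were added after seeing the data. Full values were given for members called as a locus or holding a called region, for a list of 18 dendritic cell ligands and receptors, and for the strongest region of each cell type, and the others by range and count. The members and lists were chosen with earlier results of these data known.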

Additional observations from a re-analysis of the deposited data

How the results depend on the processing

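The number of loci of the family higher in pDCs and in cDCs, 1 and 4, became 0 and 4 with library-size scaling, the DESeq2 Wald test and TMM factors from the locus sums, 0 and 0 with the repeat-window scaling, 2 and 2 with windows of a mean of at least 30 counts, 0 and 1 against a minimum fold of 1.5, 3 and 3 with the gene span alone and 0 and 2 with flanks of 50 kb. Leaving out 1 library gave 0 to 6 and 2 to 5. The number of regions, 5 and 8, became 3 and 10 with library-size scaling, 0 and 10 with the repeat-window scaling, 1 and 0 by DESeq2, 3 and 2 with a mean of at least 30 counts and 1 and 3 against the minimum fold, and leaving out 1 library gave 1 to 10 and 1 to 15. With the repeat-window scaling 103 regions were above input in cDCs and 92 in pDCs. Of all calls over loci, 57.8% were higher in pDCs, against 38.0% with library-size scaling and 28.6% with the repeat-window scaling. The cause was not tested. Deviations of same-numbered libraries had a correlation of 0.0168, but with so few pairs this cannot show whether they shared a culture or batch. With the replicate block the loci were 1 and 4 and the regions were 6 and 9.

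Log2 folds of 38 locus values changed sign. With library-size scaling Tnfsf4 was at -0.054, Tnfrsf21 at -0.071 and Tnfrsf1b at -0.060. With the repeat-window scaling Tnfrsf11a was at -0.21, Tnfsf4 at -0.56, Tnfrsf13b at -0.20, Tnfrsf10b at -0.13, Tnfrsf13c at -0.26, Tnfrsf21 at -0.48, Tnfsf15 at -0.10, Tnfrsf1b at -0.44, Tnfrsf9 at -0.075, Tnfrsf25 at -0.083 and Tnfrsf1a at -0.36. With a mean of at least 30 counts Tnfrsf1b was at -0.019, Tnfrsf9 at -0.17 and Tnfrsf14 at 0.056. Over fits that left out 1 library, Tnfrsf13c ran from -0.28 to 0.50, Tnfrsf17 from -0.23 to 0.044, Tnfsf8 from -0.18 to 0.13, Tnfsf4 from -0.38 to 0.44, Tnfrsf21 from -0.0062 to 0.12, Tnfrsf14 from -0.27 to 0.064 and Tnfsf14 from -0.075 to 0.020. With the gene span alone Tnfsf4 was at -0.12, Tnfsf9 at 0.16, Tnfsf14 at 1.01, Tnfsf8 at 0.17, Tnfrsf1b at -0.029 and Tnfrsf1a at -0.67. With flanks of 50 kb Tnfrsf12a was at -0.068, Tnfsf14 at 0.12, Tnfrsf23 at 0.030 and Ripk1 at 0.0028, and by nearest gene Tnfrsf1a was at -0.63. Of these, only Ripk1 was called in the reported comparison. The effect of depth on the calls was not tested.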
